A study of Mus musculus with 6 samples.

Results

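Pou5f1, Sox2, Sall4, Utf1, Fbxo15, Dppa2, Dppa4, Dppa5a and Lin28a are 9 genes of the undifferentiated stem cell: core transcription factors of pluripotency and genes whose expression marks the undifferentiated state. Every probe set annotated to one of these 9 genes was taken, whatever its signal, which gave 14 of the 45101 probe sets on the array. Of the 14, 13 lay in the upper 50% of probe sets by mean signal (a limit of 96.6 intensity units), and the exception was the Utf1 probe set 1458333_x_at.

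RNA came from 129/B6 hybrid mouse embryonic stem cells, grown with leukaemia inhibitory factor (LIF) on irradiated mouse embryonic fibroblasts or on gelatin, and the labels do not say which surface each culture had. Clones 3086 and 3087 are Yaf2 knockdowns (Yaf2kd) and clone 3031 has wild-type Yaf2 (Yaf2wt). Each clone gave 1 array of cells treated with 4-hydroxytamoxifen (OHT+), at 0.8 µM for 24 hours, and 1 array of cells without it (OHT-). The groups were therefore Yaf2kd OHT+ (n = 2 arrays), Yaf2kd OHT- (n = 2), Yaf2wt OHT+ (n = 1) and Yaf2wt OHT- (n = 1). OHT was given to deplete Rybp, which encodes a subunit of variant Polycomb repressive complex 1, as does its homologue Yaf2, and the OHT+ cells are labelled as Rybp mutants. No array holds OHT-treated cells with intact Rybp, so an effect of OHT itself and an effect of losing Rybp cannot be told apart. Yaf2wt is 1 clone, so Yaf2 status and clone cannot be told apart either.

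The transcription factors OCT4 (the product of Pou5f1) and SOX2 bind DNA side by side and keep embryonic stem cells self-renewing, and SALL4 is a zinc-finger factor that works with them. Utf1 and Fbxo15 are classical targets of OCT4 and SOX2, and Fbxo15 is best known as a reporter locus for reprogramming to pluripotency. Dppa2 and Dppa4 encode partner proteins that keep developmental genes poised, Dppa5a encodes an RNA-binding protein of pluripotent cells, and Lin28a encodes the RNA-binding protein that blocks maturation of let-7 microRNAs. Variant Polycomb repressive complex 1 places ubiquitin on histone H2A and takes part in silencing germline and developmental genes in these cells.

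The identity of the cells and of the groups was checked first. Nanog (6642 to 11333), Zfp42 (1901 to 2694), Tdgf1 (15867 to 17371) and Fgf4 (3240 to 5552) were far above the limit of 96.6 on all 6 arrays, whereas of 9 lineage markers Cdx2 and Afp were above it on 0 arrays, Gata6 on 1, Sox17 and Hnf4a on 2, Sox1 and Eomes on 5, and Gata4 (107 to 178) and Pax6 (203 to 452) on all 6. Yaf2 probe set 1429839_a_at averaged 276 ± 27.2 intensity units in Yaf2kd cells (SD, n = 4) and 793 ± 33.6 in Yaf2wt cells (SD, n = 2). The 2 Rybp probe sets, both also annotated to the pseudogene Rybp-ps, went in opposite directions with OHT (adjusted p 0.000112 for each in limma with an intensity trend, explained below). Probe set 1421111_at averaged 85.8 ± 27.7 in OHT+ cells and 2014 ± 239 in OHT- cells (SD, n = 3 each), and probe set 1428219_at averaged 3162 ± 332 in OHT+ cells and 242 ± 82.4 in OHT- cells. The labels do not place either probe set relative to the deleted part of Rybp, and 1 of them follows the label of the OHT+ cells and the other does not. Every array holds the same sorted values, and the ratio of 3′ to 5′ control signal for Gapdh lay between 0.801 and 0.832. For beta-actin the ratio lay between 1.31 and 1.44 (1.41 to 1.43 in OHT+ cells, 1.31 to 1.44 in OHT- cells).

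Across the array, the OHT effect over the 3 clones was fitted with limma on log2 intensity, and 0 of 45037 probe sets (0%) passed an adjusted p of 0.05; 2956 (6.56%) had an unadjusted p under 0.05. On simulated data this fit recovered none of the changes put in, whereas the trend fit described next recovered part of them, so a count of 0 from the first fit does not show that genes did not differ. Dim probe sets are noisy: the median replicate standard deviation was 0.75 on the log2 scale for the lower 50% of probe sets, 0.19 for the upper 50% and 0.15 for the 14 probe sets described here. When limma let the spread follow the signal (an intensity trend), 63 probe sets (0.14%) passed, and when the dim probe sets were left out 25 of 22518 (0.111%) passed. With the clone as a replicate block the trend fit called 101. These fits are named below wherever they change a call.

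Of the 14 probe sets, 0 passed in the first fit, in which Fbxo15 alone had an unadjusted p under 0.05, and Fbxo15 alone passed with the intensity trend and with the dim probe sets left out. By direction 7 were higher and 7 lower in OHT+ cells, with a median difference of -0.0037 (log2) beside -0.0073 for all 45037 probe sets. The OHT+ and OHT- arrays did not overlap for 4 of the 14 (2 higher, 2 lower), against 12.5% of all probe sets and 14.3% of the brighter 50%. With 1 probe set per gene, the brightest, OHT+ lay on the same side of OHT- in all 3 clones for 8 of the 9 genes (5 higher, 3 lower), against 38.6% of the brighter genes. When each array was instead scaled on 11 control genes, the same-side count was 6 of 9 (34% of the brighter genes), because Dppa2 and Dppa5a dropped out. Under that scaling the arrays did not overlap for 5 of the 14 probe sets (3 higher, 2 lower), because Dppa4 joined. The shares were then 11.5% of all probe sets and 12.5% of the brighter 50%.

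**Figure D1:**
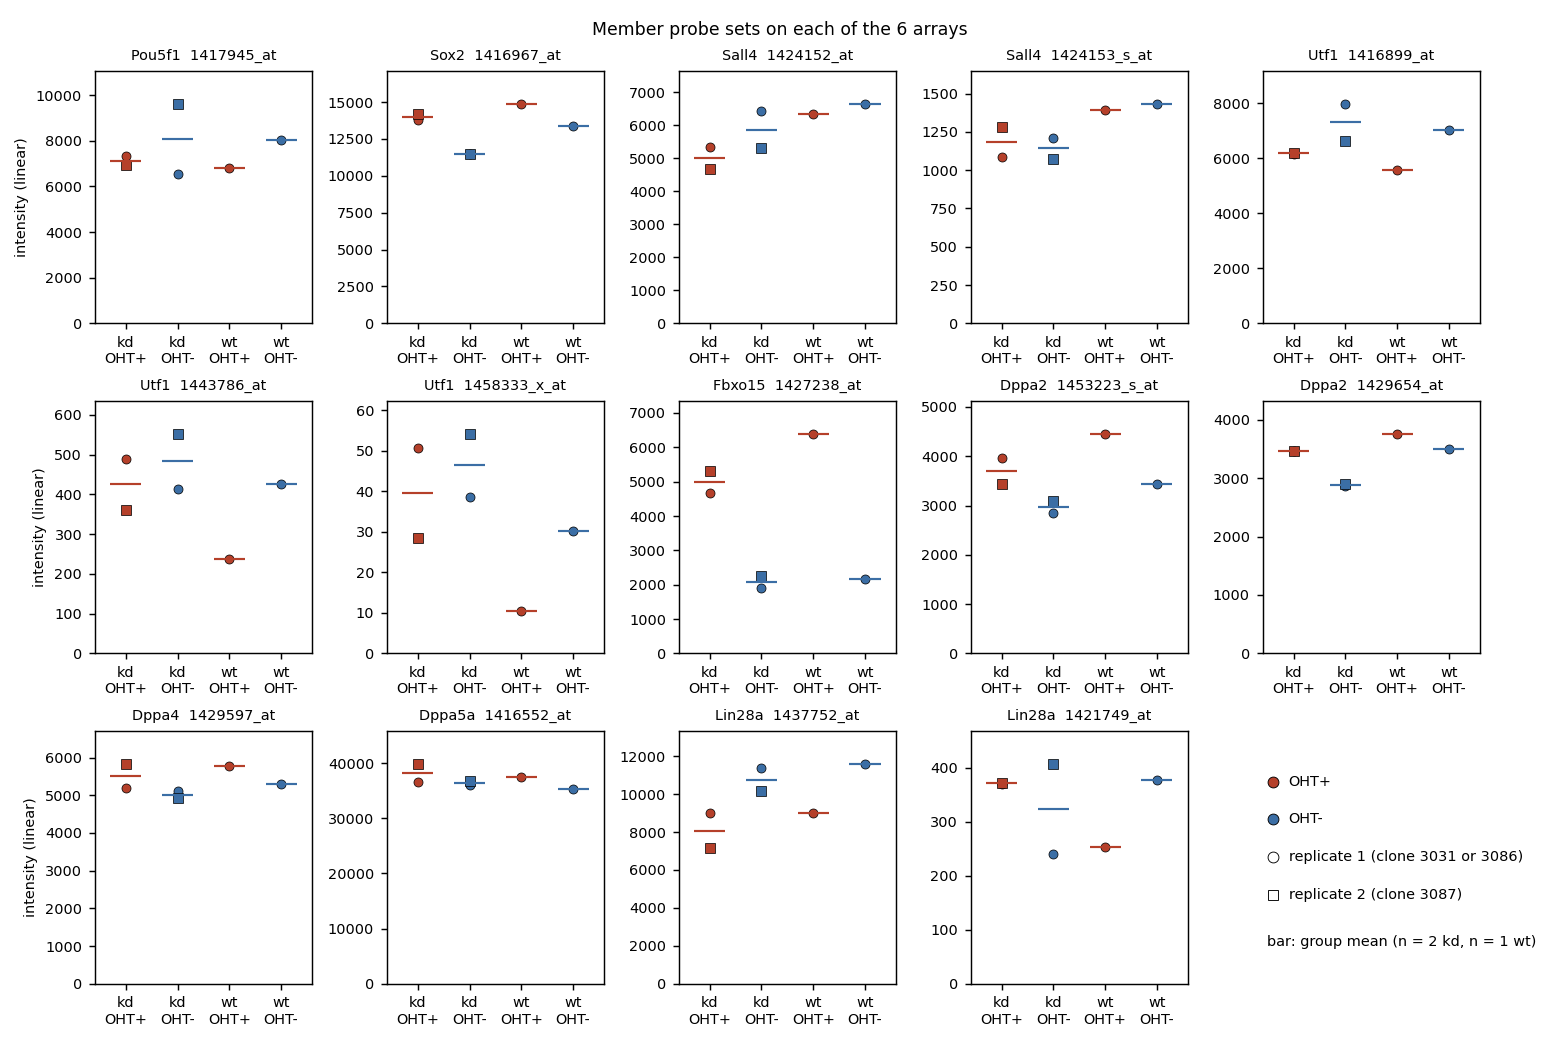
Deposited intensity (linear axis from 0) of the 14 probe sets on the 6 arrays, with OHT+ in red left of OHT- in blue, a circle for clone 3086 or 3031, a square for clone 3087, and a bar for the group mean (n = 2 arrays for Yaf2kd, 1 for Yaf2wt). Fbxo15 stands apart, with 3 OHT+ arrays between 4668 and 6393 and 3 OHT- arrays between 1904 and 2241, while Dppa5a lies between 35388 and 39833 throughout.

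Proximal promoters are shown for Sox2, Utf1 and Lin28a, 3 of the 4 genes whose OHT+ and OHT- arrays did not overlap in the deposited values. Sox2 was on the higher side and Utf1 and Lin28a on the lower. The RefSeq promoter table (build GRCm38.p6) held 4 of the 9 genes. Below are the 250 bases before the annotated start, 5′ to 3′ on the gene's strand, for Sox2 at chr3:34649745-34649994 (plus strand), Utf1 at chr7:139943606-139943855 (plus strand) and Lin28a at chr4:134018817-134019066 (minus strand); capitals mark a motif match, which is the octamer core in Sox2 and the SOX motif, as its reverse complement, in Lin28a.
Sox2: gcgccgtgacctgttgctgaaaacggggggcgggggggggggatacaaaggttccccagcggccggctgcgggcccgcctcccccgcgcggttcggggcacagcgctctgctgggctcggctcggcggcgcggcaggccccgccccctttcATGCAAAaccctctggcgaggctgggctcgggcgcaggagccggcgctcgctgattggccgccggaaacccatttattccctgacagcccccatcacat
Utf1: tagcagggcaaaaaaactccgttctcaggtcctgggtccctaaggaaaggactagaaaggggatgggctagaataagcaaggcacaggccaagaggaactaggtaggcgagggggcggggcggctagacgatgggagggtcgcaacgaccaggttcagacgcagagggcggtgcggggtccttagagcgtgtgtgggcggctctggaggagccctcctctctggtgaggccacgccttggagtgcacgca
Lin28a: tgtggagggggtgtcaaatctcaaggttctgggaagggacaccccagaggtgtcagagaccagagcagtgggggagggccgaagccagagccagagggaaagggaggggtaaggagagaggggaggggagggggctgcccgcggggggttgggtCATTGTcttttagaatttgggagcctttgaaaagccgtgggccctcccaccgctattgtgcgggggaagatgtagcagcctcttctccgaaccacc
The windows hold 27 CpG and 72% G and C in Sox2, 14 CpG and 61.6% G and C in Utf1, and 7 CpG and 61.2% G and C in Lin28a. Both strands were searched for ATGCAAA, the core of the octamer that OCT4 recognises, the SOX motif ACAATG, the E-box CACGTG and the E2F motif TCCCGC. The octamer core occurred once in the Sox2 window and the SOX motif once in the Lin28a window, and none of the 4 motifs occurred in the Utf1 window. Of 32851 mouse promoter windows of the same length, 4.125% held the octamer core and 10.69% the SOX motif, and of the 5 windows of these genes 1 and 2 did.

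Among the core factors, Pou5f1 and Sall4 showed no separation by treatment and Sox2 showed a small one. Sox2 read 13786, 14188 and 14901 on the OHT+ arrays of clones 3086, 3087 and 3031, against 11507, 11463 and 13348 on the OHT- arrays of the same clones. All 3 OHT+ values lay above all 3 OHT- values, although the lowest OHT+ array exceeded the OHT- array of the Yaf2wt clone by little. The difference was 0.24 ± 0.13 (log2, SE), with a 95% interval of -0.11 to 0.59 and an adjusted p of 0.808 in limma, so it did not pass. By group, Sox2 was highest in Yaf2wt OHT+ cells, followed by Yaf2kd OHT+ cells (13987 ± 284, SD, n = 2), Yaf2wt OHT- cells and Yaf2kd OHT- cells (11485 ± 30.5), where the Yaf2wt groups are single arrays.

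Pou5f1 read 7342, 6921 and 6798 on the OHT+ arrays of clones 3086, 3087 and 3031, against 6528, 9629 and 8024 on the OHT- arrays. The OHT- arrays alone spanned both the lowest and the highest value of the 6, and the clones disagreed in direction, with clone 3086 higher and clones 3087 and 3031 lower in OHT+ cells. The fitted difference was -0.18 ± 0.20 (log2, SE; interval -0.73 to 0.36; adjusted p 0.903), and Pou5f1 was the only one of the 9 genes whose brightest probe set was not on the same side in all 3 clones.

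For Sall4 the brighter probe set, 1424152_at, read 5353, 4673 and 6328 on the OHT+ arrays of clones 3086, 3087 and 3031, against 6424, 5299 and 6658 on the OHT- arrays. OHT+ was the lower in each clone, but the clones differed more than the treatments did, and the groups overlapped. The difference was -0.17 ± 0.16 (log2, SE; adjusted p 0.881). The other Sall4 probe set, 1424153_s_at, whose suffix marks probes shared by related transcripts, read 1089 to 1393 in OHT+ cells and 1073 to 1435 in OHT- cells. It differed by 0.02 ± 0.15 (log2, SE), and this sign turned to -0.04 under control-gene scaling; the 2 probe sets had r = 0.52 over the 6 arrays.

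**Figure D2:**
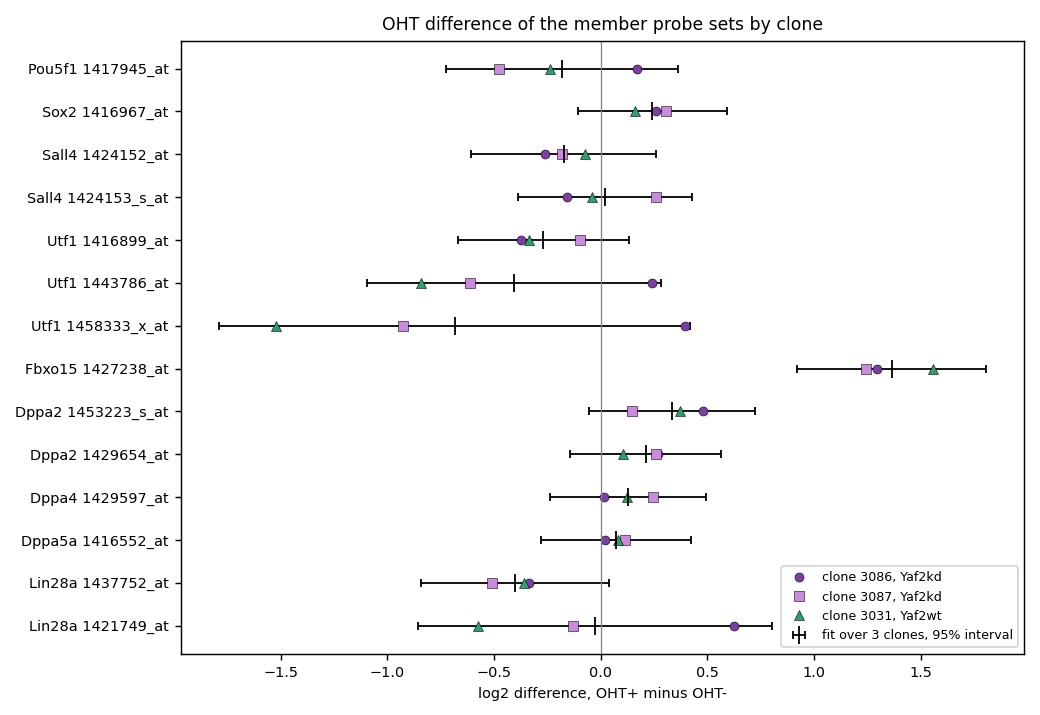
Difference in log2 intensity, OHT+ minus OHT-, for each of the 14 probe sets in clones 3086, 3087 (both Yaf2kd) and 3031 (Yaf2wt), with the limma estimate over the 3 clones as a black tick and its 95% interval as a line. In this fit, without an intensity trend, only the Fbxo15 interval of the 14, 0.92 to 1.81, does not reach 0. With the trend, intervals for Sox2 (0.08 to 0.41), Utf1 1416899_at (-0.47 to -0.07) and Lin28a 1437752_at (-0.63 to -0.18) also exclude 0. Those for Dppa2 1453223_s_at (0.13 to 0.54) and 1429654_at (0.03 to 0.39) do so too. Of all these, only Fbxo15 passed after adjustment.

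Fbxo15 and Utf1, named above as targets of OCT4 and SOX2, had fitted differences of opposite sign, but that of Utf1 did not pass in any fit. Fbxo15, which encodes the substrate-binding subunit of a ubiquitin ligase, read 4668, 5299 and 6393 on the OHT+ arrays of clones 3086, 3087 and 3031, against 1904, 2241 and 2173 on the OHT- arrays. Every OHT+ array was more than 2-fold above its own clone's OHT- array, by 2.45-fold in clone 3086, 2.37-fold in clone 3087 and 2.94-fold in clone 3031. Fbxo15 averaged 5453 ± 873 in OHT+ cells and 2106 ± 178 in OHT- cells (SD, n = 3 each).

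In the fit over 3 clones Fbxo15 was higher in OHT+ cells by 1.36 ± 0.16 (log2, SE; interval 0.92 to 1.81), a 2.57-fold difference. Its adjusted p in limma was 0.397 over all probe sets, 0.000818 with the intensity trend, where it ranked 11 of 45037 by p, and 0.0444 with the dim probe sets left out. With the trend it passed whichever array was left out (adjusted p 0.00104 to 0.0414), and with the dim probe sets left out it passed in none of the 6 (0.093 to 0.343). It was 1 of 44 brighter probe sets (0.195%) with a difference of 2-fold or more on the higher side in each of the 3 clones, while 3 (0.0133%) had one on the lower side. None of the other 13 probe sets reached 2-fold in all 3 clones in either direction.

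The order of Fbxo15 by group was Yaf2wt OHT+ (6393), Yaf2kd OHT+ (4983 ± 447, SD, n = 2), Yaf2wt OHT- (2173) and Yaf2kd OHT- (2072 ± 238). The last of these differ by less than the spread between the Yaf2kd clones. Fbxo15 was expressed without OHT in every clone, well above the limit of 96.6, and was higher with it.

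Utf1, a chromatin-associated factor of embryonic stem cells, was the lower one. Its bright probe set, 1416899_at, read 6167, 6204 and 5568 on the OHT+ arrays of clones 3086, 3087 and 3031, against 7993, 6634 and 7018 on the OHT- arrays. All 3 OHT+ values lay below all 3 OHT- values, and the largest gap was in clone 3086. The difference was -0.27 ± 0.15 (log2, SE; interval -0.67 to 0.13; adjusted p 0.813) and did not pass. The weaker probe sets 1443786_at (-0.41 ± 0.26) and 1458333_x_at (-0.68 ± 0.41) also had lower means in OHT+ cells, but each was higher in OHT+ cells of clone 3086, and neither has a transcript accession in the annotation.

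Dppa2 and Dppa4 are neighbouring genes, and both read slightly higher in OHT+ cells. Dppa2 probe set 1453223_s_at read 3968, 3433 and 4455 on the OHT+ arrays of clones 3086, 3087 and 3031, against 2841, 3101 and 3439 on the OHT- arrays. The groups overlapped by a single pair of arrays, clone 3087 with OHT and clone 3031 without it, and the difference of 0.33 ± 0.14 (log2, SE; adjusted p 0.773) did not pass. The second probe set, 1429654_at, differed by 0.21 ± 0.13 and followed the first over the 6 arrays (r = 0.89).

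Dppa4 read 5181, 5830.5 and 5771 on the OHT+ arrays of clones 3086, 3087 and 3031, against 5117, 4915 and 5303 on the OHT- arrays, a difference of 0.13 ± 0.14 (log2, SE; adjusted p 0.895). Clone 3086 differed by only 0.02 (log2), and its OHT+ array lay below the OHT- array of clone 3031. Dppa5a, from the brightest of these probe sets, averaged 37949 ± 1678 in OHT+ cells and 36080 ± 709 in OHT- cells (SD, n = 3 each). Its highest array was 1.13-fold above its lowest, the narrowest range of the 14 probe sets, against 3.36-fold for Fbxo15. By mean signal Dppa5a stood at percentile 99.9 of the array, and whether differences are compressed at such signals was not tested. The Dppa5a difference was 0.07 ± 0.13 (log2, SE), with a 95% interval of -0.28 to 0.43.

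Lin28a had the lowest difference among the brightest probe sets of the 9 genes. Probe set 1437752_at read 9019.8, 7131 and 9028 on the OHT+ arrays of clones 3086, 3087 and 3031, against 11373, 10168 and 11589 on the OHT- arrays. All OHT+ values lay below all OHT- values, and the difference was of similar size in each clone, -0.33, -0.51 and -0.36 on the log2 scale. The fit gave -0.40 ± 0.16 (SE; interval -0.84 to 0.04; adjusted p 0.766; 0.295 with the trend), which did not pass. Probe set 1421749_at, a much dimmer one, read 371, 372 and 254 in OHT+ cells and 241, 407 and 378 in OHT- cells of the same clones, and did not follow the first (r = -0.21). Fewer cells that express a gene and less RNA per cell cannot be told apart in these bulk samples, here or for any gene below.

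The Yaf2 knockdown was compared with wild-type Yaf2 at equal OHT status, and no difference of these genes passed. In limma 0 of 45037 probe sets (0%) passed, 3011 (6.69%) had an unadjusted p under 0.05, and the trend fit and the fit without dim probe sets also called 0. Neither probe set of Yaf2 itself passed, although they were lower in Yaf2kd cells by -1.52 ± 0.17 and -1.41 ± 0.16 (log2, SE). Their adjusted p in limma was 0.543 each, and 0.163 and 0.167 with the trend. A count of 0 here therefore does not show that genes did not differ. Of the 14 probe sets, 6 were higher and 8 lower in Yaf2kd cells (median -0.11, against 0.0020 for all probe sets), and 0 passed. The shift of the 11 control genes, Yaf2kd minus Yaf2wt, was itself -0.07 (log2). Groups did not overlap for 2 of the 14, both lower in Yaf2kd cells, against 18.2% of all probe sets. Under control-gene scaling the count was also 2, with 1 lower (Sall4 1424153_s_at) and 1 higher (Dppa5a).

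One was Sall4 1424153_s_at, at 1165 ± 101 in Yaf2kd cells (SD, n = 4) and 1414 ± 29.6 in Yaf2wt cells (SD, n = 2), with a difference of -0.28 ± 0.16 (log2, SE; adjusted p 0.766). The brighter Sall4 probe set had a like difference of -0.26 ± 0.17, though its groups overlapped. The other was Dppa2 1429654_at, at 3171 ± 333 in Yaf2kd cells and 3624 ± 188 in Yaf2wt cells, with -0.20 ± 0.14. Its separation was lost under control-gene scaling. Of the naive pluripotency network described below, 3 genes were higher and 11 lower in Yaf2kd cells (median -0.20, or -0.12 under control-gene scaling), and 0 passed. Differences for Pou5f1 (0.03 ± 0.21), Dppa5a (0.04 ± 0.14) and Dppa4 (-0.08 ± 0.14) were smaller than their errors, and those for Sox2 (-0.15 ± 0.14), Fbxo15 (-0.22 ± 0.17) and Lin28a 1437752_at (-0.14 ± 0.17) did not pass either. The largest value, 1.22 ± 0.43 for the dim Utf1 1458333_x_at, rests on signals of 10.5 to 54.2 that lie below the limit.

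**Figure D3:**
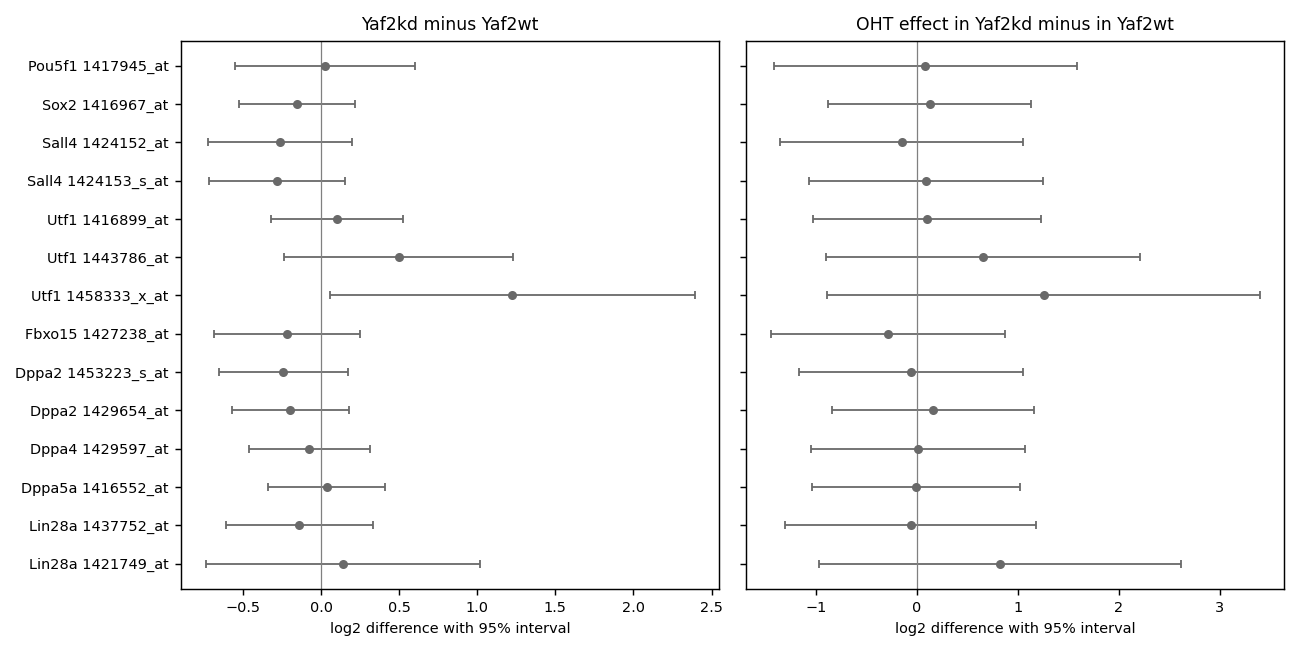
Limma estimates in log2 units with 95% intervals for the 14 probe sets, Yaf2kd minus Yaf2wt on the left and the OHT difference in Yaf2kd minus that in Yaf2wt on the right. In these fits, without an intensity trend, all 14 intervals on the right include 0. On the left the dim Utf1 1458333_x_at is the only one that does not. With the trend its left interval includes 0 (-0.20 to 2.65). Those of Sall4 1424152_at (-0.50 to -0.03) and 1424153_s_at (-0.54 to -0.02) then exclude 0. So do those of Dppa2 1453223_s_at (-0.46 to -0.03) and 1429654_at (-0.39 to -0.004) and Utf1 1443786_at (0.02 to 0.98). None passed after adjustment.

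Within Yaf2kd cells alone (2 arrays against 2), 0 probe sets (0%) passed in limma, 2759 (6.13%) had an unadjusted p under 0.05, and 17 (0.0377%) passed with the trend, or 51 with the trend and the replicate block. Fbxo15 was higher in the OHT+ cells by 1.27 ± 0.23 (log2, SE), with an adjusted p of 0.54, or 0.039 with the trend and 0.343 with the dim probe sets left out. In the Yaf2wt clone the same difference, 1 array against 1, was 1.56 and has no replicate check. The difference between these OHT effects was -0.29 ± 0.39 for Fbxo15, with a 95% interval of -1.45 to 0.87, which leaves room for a response smaller or larger in Yaf2kd cells. It did not pass for any of the 14 probe sets, and 0 of 45037 (0%) passed in limma, with 2289 (5.08%) at an unadjusted p under 0.05. The Yaf2wt arrays enter that fit on the assumption that they vary like the Yaf2kd groups.

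Other genes of the same network give the setting. The naive pluripotency network held 14 measured genes of 14, and 0 passed in the fit over all probe sets, with the trend or without dim probe sets; 6 had an unadjusted p under 0.05. All 14 had higher fitted means in OHT+ cells, with a median difference of 0.30 (log2), but 1 turned to the lower side under control-gene scaling (median 0.24). The largest were Klf4 (0.90 ± 0.26), which encodes a Krüppel-like factor downstream of LIF, Tfcp2l1 (0.87 ± 0.24), a naive-state transcription factor, and Tcl1 (0.86 ± 0.20), a coactivator of AKT kinase. Tcl1 averaged 1825 ± 43.4 in OHT+ cells and 1025 ± 263 in OHT- cells (SD, n = 3 each), and its adjusted p was 0.0715 with the trend.

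Relatives of the core factors were mostly lower. Of 16 measured paralogues, 5 were higher and 11 lower in OHT+ cells, with a median of -0.36. In these 3 fits 0 passed, and 3 had an unadjusted p under 0.05. Some of these directions rest on dim signals, since 5 of the 16 were dim. The 11 brighter paralogues, of either direction, also had a median of -0.36. The largest were the neural SOX factors Sox3 (-1.14 ± 0.36) and Sox1 (-1.09 ± 0.26), followed by Sall2 (-0.70 ± 0.20). The Sox3 difference was larger in the Yaf2kd clones, which read 161 and 131 with OHT against 399 and 488 without it. In the Yaf2wt clone, 1 array against 1, Sox3 read 227 with OHT against 261 without it. The OHT difference of Sox3 in Yaf2kd minus that in Yaf2wt was -1.40 (log2). Sox3 averaged 173 ± 49.1 in OHT+ cells and 383 ± 114 in OHT- cells, far below the range of Sox2 signals, though signals of different probe sets are not comparable as levels. Sox3 and Sall2 also stand in the primed epiblast list, where 1 of 12 genes was higher and 11 were lower (median -0.32, 0 passed, 4 with an unadjusted p under 0.05), with Otx2, a homeobox factor of the primed state, at -0.78 ± 0.19.

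The LIN28 and let-7 list, which holds LIN28's partner genes and let-7 targets, leaned lower in part. Of 13 measured genes, 1 was higher and 12 were lower (median -0.18), 0 passed over all probe sets, 2 had an unadjusted p under 0.05 and 1 fell with the trend. That gene was Igf2bp3, an RNA-binding protein gene and let-7 target, which read 1759, 1530.4 and 1319 on the OHT+ arrays of clones 3086, 3087 and 3031, against 3033, 2477 and 2372 on the OHT- arrays. Its difference was -0.78 ± 0.16 (log2, SE), with an adjusted p of 0.589 over all probe sets, 0.0303 with the trend and 0.182 without dim probe sets. Hmga2 (-0.50 ± 0.14) and Lin28b (-0.44 ± 0.19), the paralogue of Lin28a, did not pass. Igf2bp3, Hmga2, Lin28b, Igf2bp1, Myc and Arid3b were lower in all 3 clones. In the remaining genes of the list the clones disagreed in direction. Among these, Tut7 (-0.01 ± 0.14), Dis3l2 (-0.03 ± 0.27), Trim71 (-0.05 ± 0.21) and Dicer1 (-0.06 ± 0.16) differed by less than their errors.

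Among 7 measured genes known to be switched on by DPPA2 and DPPA4, 6 lay below the signal limit, 3 were higher and 4 lower, and 0 passed over all probe sets (2 had an unadjusted p under 0.05). The exception in signal was Usp17la, a deubiquitinase gene of a multicopy family, so its probes may read several copies. It read 386, 519 and 976 on the OHT+ arrays of clones 3086, 3087 and 3031, against 55.3, 54.3 and 59.3 on the OHT- arrays, where it was below the limit. Its difference was 3.37 ± 0.29 (log2, SE), with an adjusted p of 0.296 over all probe sets, 0.00099 with the trend and 0.0155 without dim probe sets. The 20 genes of OCT4 and SOX2 partner complexes were even, 10 higher and 10 lower with a median of 0.02 (9 and 11, with a median of -0.04, under control-gene scaling) and 0 at an unadjusted p under 0.05. The largest was the chromatin remodeller gene Arid1a (-0.37 ± 0.16), followed by Sall1 (-0.36 ± 0.20) and Esrrb (0.35 ± 0.18). A further list of 16 measured genes of undifferentiated cells had 10 higher and 6 lower (median 0.08, or 9 and 7 with a median of 0.02 under control-gene scaling). Of these 0 passed, and 6 had an unadjusted p under 0.05. The germline factor gene Dppa3 was at 0.61 ± 0.17, and the Nodal-pathway genes Gdf3 and Lefty1 were at -0.49 ± 0.15 and -0.46 ± 0.17.

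**Figure D4:**
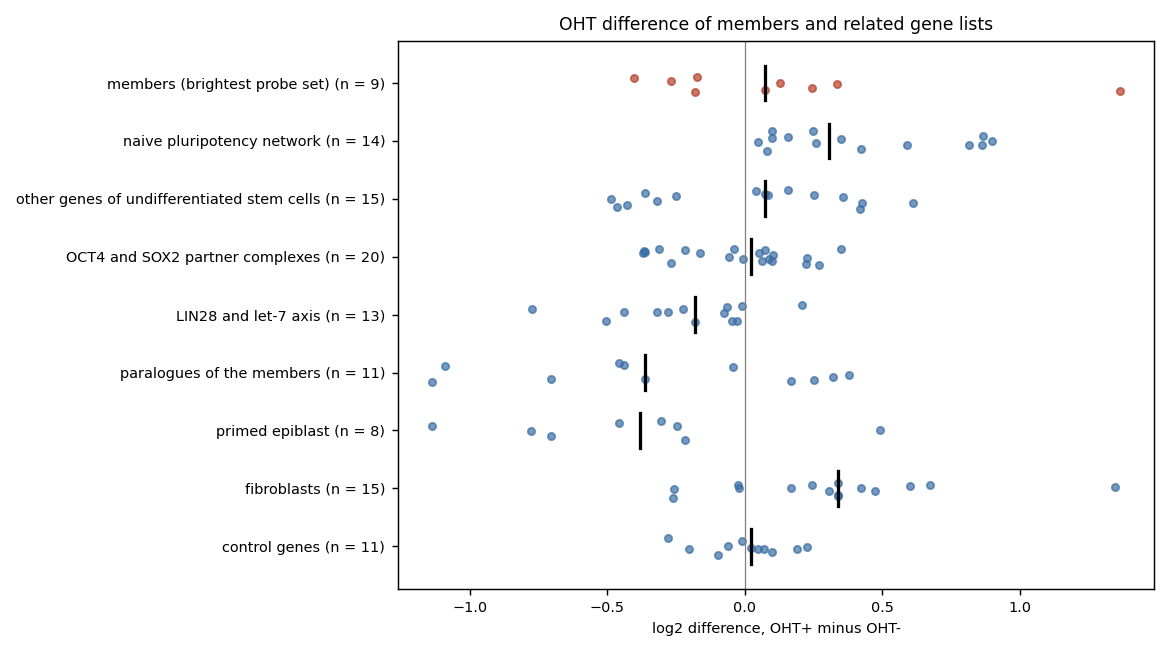
Difference in log2 intensity, OHT+ minus OHT-, for genes above the signal limit in each list (1 point a gene, brightest probe set; black bar, median). The 9 genes, in red, run from -0.40 (Lin28a) to 1.36 (Fbxo15), all points of the naive network lie above 0, and most paralogues and primed epiblast genes lie below it.

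Feeder fibroblasts could add RNA to these samples, and their markers leaned higher with OHT. Of 23 measured fibroblast markers, 16 were higher and 7 lower in OHT+ cells (median 0.34), 0 passed, and 4 had an unadjusted p under 0.05. Their largest differences were Pdgfrb (1.34 ± 0.29), Col1a1 (0.67 ± 0.22) and Col5a2 (0.60 ± 0.16). Their summed intensity overlapped, at 28348 to 34120 in OHT+ cells and 28018 to 34035 in OHT- cells, and of 10 fibroblast markers checked array by array Lum and Dcn were above the limit on 0 arrays, Col3a1 on 1, Pdgfrb and Postn on 4, and Col1a1, Col1a2, Thy1, Vim and Fn1 on all 6. By Yaf2 status the sums did not overlap, at 29149 to 34120 in Yaf2kd cells and 28018 to 28348 in Yaf2wt cells. A few bright genes weigh most in these sums. Acta2 (3954 to 5468 in Yaf2kd, 2709 to 3191 in Yaf2wt) and Tagln (3517 to 5705 and 2307 to 2891) did not overlap. Fn1, the brightest, did (8127 to 11139 and 10851 to 11463). Gene by gene, 7 of the 23 markers were higher without overlap in Yaf2kd cells and 1 lower, against 18.5% of all genes in either direction. The part of feeder RNA in the differences above was not tested. Markers of neuroectoderm (8 genes, median -0.40), primitive endoderm (14 genes, 0.03, or -0.03 under control-gene scaling), mesoderm (9 genes, -0.02, or -0.08) and trophectoderm (10 genes, -0.09, or -0.15) had 0 calls in OHT+ against OHT- cells, with 3, 2, 0 and 3 genes at an unadjusted p under 0.05. Their summed intensity did not overlap for primitive endoderm (7825 to 8601 in OHT+ cells, 6966 to 7642 in OHT- cells) or neuroectoderm (1182 to 1444 in OHT+ cells, 1458 to 1805 in OHT- cells), and overlapped for mesoderm (582 to 849 in OHT+ cells, 550.0 to 748 in OHT- cells) and trophectoderm (6789.7 to 8905 in OHT+ cells, 7205 to 9328 in OHT- cells). Of the 14 primitive endoderm markers 8 were dim, and Lamb1 weighs most in their sum (3839 to 4152 in OHT+ cells, 3525 to 3796 in OHT- cells). Gata4 (120 to 174 in OHT+ cells, 107 to 178 in OHT- cells), Gata6 (64.7 to 93.2 and 57.5 to 115) and Sox17 (67.3 to 127 and 67.9 to 103) overlapped. The part of these lineages in the differences above was not tested.

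How alike the 9 genes ran over the 6 arrays is given as a description only, since all 6 share the same OHT split, the same clones and one normalization. Fbxo15 followed Sox2 (r = 0.88), Dppa2 (0.84) and Dppa4 (0.78), and ran against Utf1 (-0.90) and Lin28a (-0.83). Dppa5a ran against Lin28a (-0.95) and Sall4 (-0.79), while Pou5f1 had no r beyond 0.60 in size with any of the others.

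Among 11158 brighter genes, those most like Fbxo15 over the 6 arrays were Fbrs, Usp17la and Sycp2 (r 0.992 to 0.995), of which Sycp2, a synaptonemal complex gene, was higher in OHT+ cells by 1.46 (log2). The genes most like Dppa2 were Ctbp2, Klf4 and Avpi1, those most like Dppa4 were Dpp7, Kyat1 and Trpt1, and those most like Dppa5a were Upk2, Tmsb10 and Rfng. Sox2 was followed most closely by Zc3h8, Denr and Col13a1, Sall4 by Fnip1, Hacd3 and Cdk7, and Pou5f1 by Mtres1, Alox12 and Pfdn5. For Utf1 they were Clvs2, Tyro3 and Tmem63b, and for Lin28a they were Hnrnpll, Armcx2 and Nwd1. With 6 arrays, an r of 0.975 or more was reached by all 27 of these genes.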

How the data were processed

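The authors deposited probe-set intensity values for the 6 arrays in 1 table. Affymetrix Expression Console and RMA are named in the submitters' processing notes, without role or version. The deposited intensity is on a linear scale with the same sorted values on every array, and its log2 was analysed, with nothing added. Although the array is called 430A 2.0 in the series text, the table holds 45101 probe sets, and their annotation was used. All 45037 probe sets other than the 64 array controls were fitted with limma 3.58.1 (R 4.3.3) and adjusted together by Benjamini-Hochberg, at 0.05. The OHT and Yaf2 effects came from an additive model (3 residual degrees of freedom), and the effect in Yaf2kd cells and the difference of OHT effects from a model of 4 groups (2 residual degrees of freedom). Depth has no meaning for arrays; their number limits the precision.

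The genes and lists were chosen with earlier results of these data known. From each list the text names genes that passed and up to 3 of the largest that lay on the same side in all 3 clones and were not dim (brightest probe set per gene), and for each of the 9 genes the 3 most like it. Arrays of 1 clone are paired by the labels. Deviations of same-clone Yaf2kd arrays from their group means had r = 0.031 over all probe sets and 0.15 over the brighter 50%. Alternatives were an intensity trend, dim probe sets left out, log2 of intensity plus 32, 1 probe set per gene, control-gene scaling, the replicate block and each array left out. The fits were tested on simulated data, where the fit over all probe sets without a trend recovered no change.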

Additional observations from a re-analysis of the deposited data

How the results depend on the processing

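Of 28 results (14 probe sets, OHT and Yaf2 effects), 4 changed sign under some setting, and 24 of the 25 changed values came from leaving out an array. For Sall4 1424153_s_at with OHT, leaving out each array gave -0.057 to 0.079 (log2), with -0.039 without Yaf2kd OHT- replicate 2 and -0.040 under control-gene scaling. Lin28a 1421749_at ran from -0.32 to 0.25 with OHT (0.11 without Yaf2kd OHT- replicate 2) and from -0.27 to 0.55 with Yaf2, and Pou5f1 with Yaf2 from -0.088 to 0.15 (-0.017 without the Yaf2wt OHT+ array); the cause was not tested. Fbxo15 kept its direction throughout (1.27 to 1.46). With the replicate block, none of 82 values changed sign and only Fbxo15 with OHT gained a call, where the block joined the trend (adjusted p 0.000303) or dim probe sets left out (0.0435). Settings that combine the trend, the block, dim probe sets left out or an array left out were chosen after seeing the data.

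For OHT over the 3 clones, the count of probe sets called was 0 at first, 63 with the trend, 25 without dim probe sets, 30 without them and with the block, 97 with the trend and without dim probe sets, and 101 with the trend and block. Leaving out each array gave 0 with no other change and 14 to 53 with the trend (21 and 44 without replicate 1 of Yaf2kd OHT+ and of Yaf2kd OHT-, 17 without replicate 2 of Yaf2kd OHT+). Without dim probe sets it gave 0 to 15 (5 and 1 without replicates 1 and 2 of Yaf2kd OHT+). Within Yaf2kd cells the counts were 0 at first, 17 with the trend, 11 with the block and without dim probe sets, 35 with the trend and without them, and 51 with the trend and block. Leaving out each array there gave 0 to 17 with the trend (1 and 0 without replicates 1 and 2 of Yaf2kd OHT+, 11 and 12 without replicates 1 and 2 of Yaf2kd OHT-). For Yaf2 the count was 0 except with the trend and without Yaf2kd OHT- replicate 1, where it was 8. Leaving out a Yaf2wt array gave no value for the difference of OHT effects. Signals below the limit of 96.6, including Utf1 1458333_x_at, are too noisy for a call.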
